A study of Mus musculus with 85 samples.

Results

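The step from the 16-cell to the 32-cell mouse embryo was examined by setting the early 32-cell libraries (4 libraries, collected 90 h after the hCG injection that times ovulation) against the early 16-cell libraries (5 libraries, 80 h). These 9 libraries, chosen by their titles, were part of 85 libraries of preimplantation embryos. Both groups were wild-type embryos of the strain B6C3F1/J, cultured in standard KSOM medium with 5 mM lactate, 0.2 mM pyruvate and 0.2 mM glucose, so the groups differed in stage and age only as far as the labels go. RNA was converted by the Smart-seq2 method, in which cDNA is primed at the poly(A) tail and amplified whole. Levels are in CPM, counts scaled so that every library has the same total. The labels do not state how many embryos or cultures lie behind a library, so a p-value sets a difference against library-to-library spread alone, and that spread may be technical. A library is whole-embryo RNA: fewer cells of a type and less RNA per cell cannot be told apart.

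During this window the mouse embryo makes its first cell lineages. Outer cells, which are polarised and keep Hippo signalling low, let the coactivator YAP work with the DNA-binding factor TEAD4 and become trophectoderm, the epithelium that pumps fluid into the blastocoel and later forms placenta. Inner cells, with active Hippo signalling, form the inner cell mass, which later divides into epiblast (the source of the fetus, marked by NANOG and SOX2) and primitive endoderm (the source of yolk sac endoderm, marked by GATA6, SOX17 and GATA4). FGF4 from future epiblast, received by FGFR1 and FGFR2, drives this later choice in mouse.

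The libraries of a stage were close to each other. Over 6749 genes, Pearson's r of log2 levels was 0.984 to 0.993 within the 32-cell group and 0.988 to 0.994 within the 16-cell group, against 0.914 to 0.939 between groups, which describes these libraries and has no test. Inferred depth was about 19000000 to 26800000 reads in the 32-cell libraries and 17200000 to 28000000 reads in the 16-cell libraries. Markers of other cells that could travel with embryos were low. All 14 cumulus and granulosa markers lay under 1 CPM in all 9 libraries, with sums of 0.522 to 0.789 CPM in 32-cell and 0.523 to 1.31 CPM in 16-cell libraries, and 7 of them were at 0. The 8 sperm markers were also under 1 CPM throughout, and their sums were 0.256 to 0.591 CPM in 32-cell and 0.0516 to 0.357 CPM in 16-cell libraries. Sums of 7 blood markers were 2.74 to 4.45 CPM in 32-cell and 5.69 to 7.63 CPM in 16-cell libraries, and those of 9 oviduct and fibroblast markers 0.920 to 1.56 CPM in 32-cell and 0.731 to 1.70 CPM in 16-cell libraries. A share of ribosomal RNA-like signal was summed over the mitochondrial ribosomal RNAs mt-Rnr1 and mt-Rnr2 and the noncoding loci CT010467.1, AY036118 and Gm26917, chosen after their values were seen. This share was 0.642 ± 0.082% in 32-cell and 1.47 ± 0.26% in 16-cell libraries. Its part in the results was not tested.

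Each library was placed on a line running between the mean of the early 8-cell embryos (position 0) and the mean of the blastocysts (position 1), over 9201 genes that differ at least 2-fold between those end groups. The 32-cell libraries stood at 0.579, 0.611, 0.616 and 0.592, and the 16-cell libraries at 0.430, 0.406, 0.393, 0.398 and 0.381. The groups did not overlap. Mean position was 0.600 ± 0.017 at 32 cells and 0.402 ± 0.018 at 16 cells, a difference of 0.198 with an exact two-sided permutation p of 0.00794, the smallest that dividing 9 libraries into 4 and 5 allows (adjusted over 4 such values, 0.0159). For reference, late 8-cell libraries averaged 0.119 and morulae 0.187. Before the early 8-cell stage, early 2-cell libraries averaged 0.587 and mid 2-cell libraries 0.355, so a position alone does not give a stage. After median-ratio scaling the early 2-cell mean was 0.304, against 0.558 at 32 cells and 0.349 at 16 cells. The 100 highest genes held 35.0 ± 0.960% of all CPM at 32 cells and 33.1 ± 0.672% at 16 cells (exact permutation p = 0.00794, adjusted 0.0159). The number of genes above 1 CPM was 12390.5 ± 336 at 32 cells and 12201 ± 217 at 16 cells, a difference smaller than the spread between libraries (exact permutation p = 0.349).

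**Figure D1:**
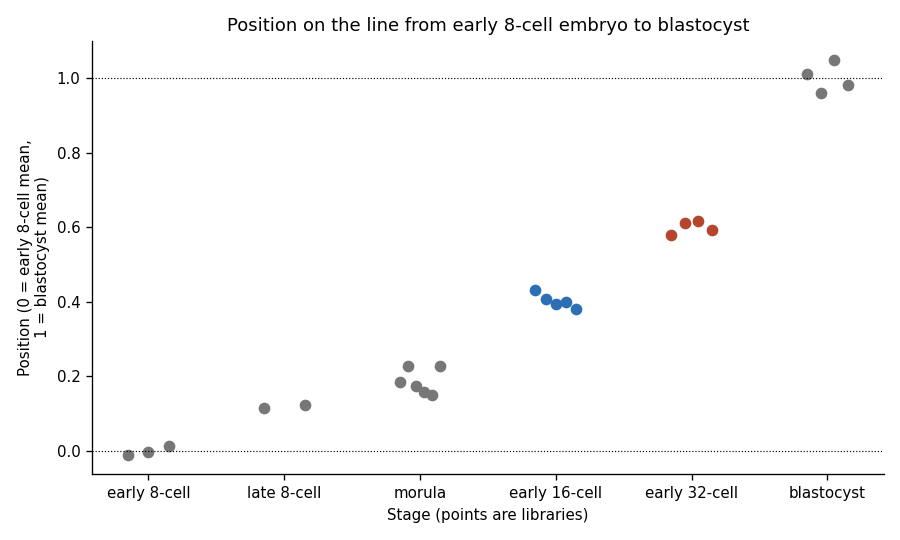
Position of each library (points) on the line between the early 8-cell mean (0) and the blastocyst mean (1), by stage; the y axis has no unit. The 4 early 32-cell libraries lie between 0.579 and 0.616 and the 5 early 16-cell libraries between 0.381 and 0.430.

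Across 20159 genes tested with limma on log2(CPM + 1), 4175 genes (20.7%) passed an adjusted p of 0.05 (Benjamini-Hochberg over all genes tested). Of these, 1712 were higher in 32-cell embryos (8.49% of genes tested) and 2463 lower (12.2%), and the change was at least 2-fold for 478 of the higher and 690 of the lower genes. The libraries of the groups did not overlap at 6234 genes (30.9%), with the 32-cell libraries higher at 13.1% and lower at 17.8% of genes. The spread was taken from all 12 standard-medium stages. With the spread of these 9 libraries alone, 7242 of 13020 genes passed (55.6%), 3062 higher (23.5%) and 4180 lower (32.1%). List counts given below for the 9 libraries alone stand against these 2 shares, not against 8.49% and 12.2%. That fit also tested fewer members of many lists. The 20159 genes include genes above 1 CPM at other stages only, so shares over them also count genes low in these 9 libraries. Lists differ in how many such members they hold. A further fit, added after seeing the data, used the 6 stages from early 8-cell embryo to blastocyst. The balance of directions depended on scaling. Higher genes made up 41.0% of all calls on the deposited scale, 56.8% after median-ratio scaling, 48.6% after quantile scaling and 46.4% after removal of a trend with gene length. After median-ratio scaling 23.3% of genes passed (13.2% higher, 10.1% lower), after quantile scaling 22.5% (10.9% higher, 11.5% lower) and after removal of the length trend 21.2% (9.86% higher, 11.4% lower). The median log2 change of genes with at least 20 CPM was -0.12 on the deposited scale and 0.03 after median-ratio scaling, so that changes of that size have no fixed sign. Among the changes named below are some of that size that did not pass, and list medians of that size are likewise near 0. A call that another setting ended is given with it.

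**Figure D2:**
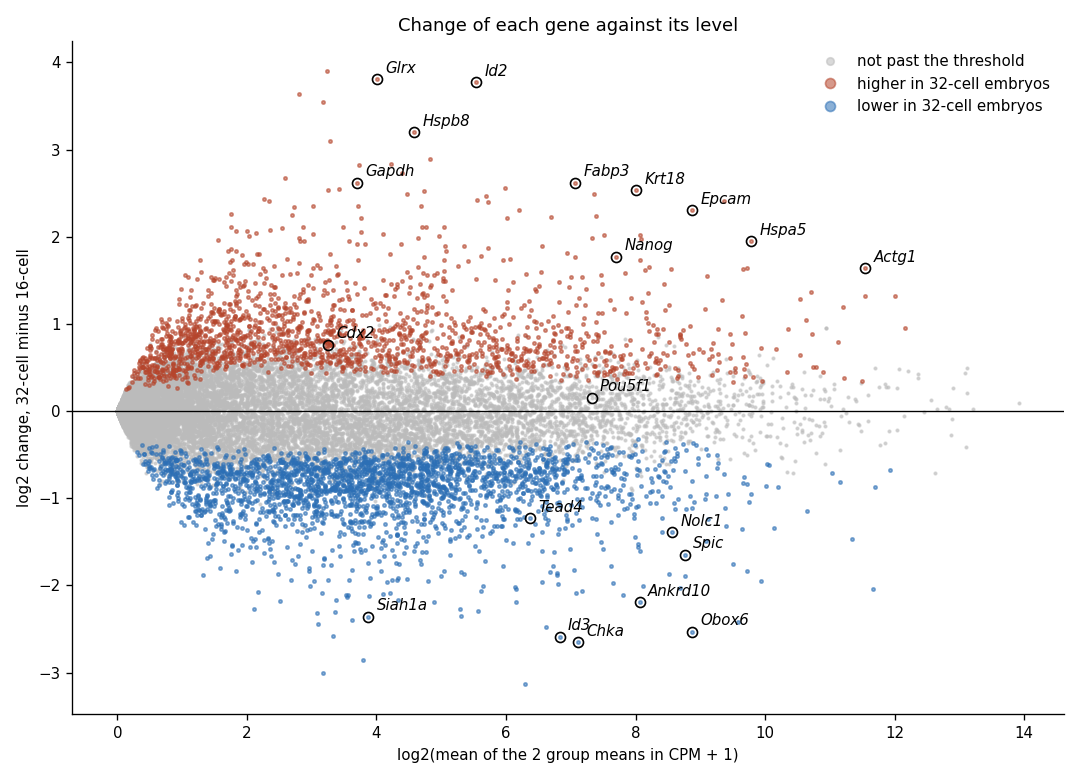
Log2 change (32-cell minus 16-cell, y axis) of each of the 20159 genes tested, against the log2 of its mean level in CPM plus 1 (x axis); red points passed as higher, blue points as lower, and grey points did not pass. Id2 at 3.77 and Glrx at 3.80 lie at the upper edge, and Chka at -2.65 and Id3 at -2.59 at the lower edge, while Pou5f1 at 0.15 and Cdx2 at 0.76 are open circles on grey.

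Genes that mark trophectoderm as a working epithelium were higher in 15 of 25 cases, while the factors thought to specify it went both ways. Of these 25 differentiation products, 9 did not pass and 1 was lower (4%, against 12.2% over all genes). The lower one was Apoa1, an apolipoprotein (10.9 against 22.4 CPM). The Apoa1 call was lost without 32-cell replicate 2 or 3 or 16-cell replicate 4, in the fit of 6 stages, with a pseudocount of 0.1 or after quantile scaling (adjusted p up to 0.21). The median log2 change of the list was 1.37, against -0.01 over all genes tested, and its share of higher genes was 60%, against 8.49% over all genes. The keratins of simple epithelium were among them. Krt8 had 312, 261, 239.5 and 302 CPM in the 32-cell libraries and 45.2, 54.3, 50.5, 49.0 and 44.3 CPM in the 16-cell libraries. Its partner Krt18, with which it forms filaments, had 509, 415, 392 and 425 CPM in the 32-cell libraries and 66.0, 78.9, 106, 74.3 and 54.2 CPM in the 16-cell libraries. All 32-cell libraries were above all 16-cell libraries for both. The log2 change was 2.49 (SE 0.23, adjusted p = 6.2e-11) for Krt8 and 2.53 (SE 0.38, adjusted p = 2.6e-06) for Krt18. Reads of Krt8 and Krt18 are uncertain, because both have near-identical processed copies in the genome. Their starts are close on chromosome 15 and face away from each other, Krt8 at chr15:102004293-102004592 on the minus strand and Krt18 at chr15:102027966-102028265 on the plus strand (250 bases before to 50 after the start, GRCm38.p6).

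Promoter sequences from RefSeq are shown for these paired keratins and for Id2 and Id3, family members that moved in opposite directions. Id2 lies at chr12:25096043-25096342 on the minus strand and Id3 at chr4:136143572-136143871 on the plus strand. Each is written 5′ to 3′ on its gene's strand, and capitals mark matches, on either strand, to GGAATG (the motif of TEAD factors), GCCNNNGGC (AP-2 factors), AGATAA (the motif of GATA factors), CACGTG (E-box), TGACTCA (AP-1) or CCGGAA (ETS).
Krt8: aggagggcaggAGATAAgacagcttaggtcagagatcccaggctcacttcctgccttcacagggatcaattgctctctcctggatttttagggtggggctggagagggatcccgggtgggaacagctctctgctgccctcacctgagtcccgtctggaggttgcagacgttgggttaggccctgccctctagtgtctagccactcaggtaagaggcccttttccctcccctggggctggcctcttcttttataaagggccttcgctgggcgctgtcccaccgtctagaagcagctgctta
Krt18: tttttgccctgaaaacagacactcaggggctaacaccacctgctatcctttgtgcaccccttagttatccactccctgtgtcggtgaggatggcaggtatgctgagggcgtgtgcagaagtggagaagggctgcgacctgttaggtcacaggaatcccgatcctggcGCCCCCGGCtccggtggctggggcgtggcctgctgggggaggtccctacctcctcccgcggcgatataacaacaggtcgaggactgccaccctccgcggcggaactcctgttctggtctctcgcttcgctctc
Id2: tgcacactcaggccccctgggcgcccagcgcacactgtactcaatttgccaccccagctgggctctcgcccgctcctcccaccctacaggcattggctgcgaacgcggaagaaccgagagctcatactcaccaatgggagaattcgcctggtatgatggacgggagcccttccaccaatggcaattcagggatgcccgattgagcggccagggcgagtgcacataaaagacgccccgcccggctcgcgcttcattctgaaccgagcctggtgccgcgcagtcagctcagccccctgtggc
Id3: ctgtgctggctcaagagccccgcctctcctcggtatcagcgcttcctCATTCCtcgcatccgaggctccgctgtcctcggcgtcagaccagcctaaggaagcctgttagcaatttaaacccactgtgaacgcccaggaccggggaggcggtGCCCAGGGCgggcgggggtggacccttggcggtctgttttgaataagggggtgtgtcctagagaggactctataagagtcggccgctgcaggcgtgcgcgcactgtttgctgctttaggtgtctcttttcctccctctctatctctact
Krt8 held a GATA match at position -239 from its start and Krt18 an AP-2 match at -83. Id3 held a TEAD match at -203 on the other strand and an AP-2 match at -99, and Id2 held no match in this window. Over promoters of the genes called higher, called lower and tested in all (1048, 1746 and 12346 promoters), the TEAD motif was present in 14.7%, 12.3% and 12.5%. The AP-2 motif was present in 22.8%, 25.3% and 23.5% in that order, the GATA motif in 6.87%, 6.70% and 7.38%, and the E-box in 8.87%, 12.1% and 9.65%. The ETS motif was present in 22.9% of promoters of higher genes and 31.1% of those of lower genes, against 25.8% of all. The AP-1 motif was present in 5.25%, 2.12% and 3.74%. These shares are descriptions with no test; the base composition of the groups was close but not equal, at 58.7%, 60.6% and 59.4% G and C. A match is not a binding site.

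Other trophectoderm products rose as well. Fabp3, a carrier of fatty acids, had 235, 213, 199 and 264 CPM in the 32-cell libraries and 31.2, 30.6, 51.7, 49.3 and 24.6 CPM in the 16-cell libraries. The libraries did not overlap, and the log2 change was 2.62 (SE 0.28, adjusted p = 1.8e-09); the processed copy Fabp3-ps1 moved with it (2.56), and the counting could divide reads between them. Lgals1, a galactoside-binding lectin, had 19.3, 10.9, 18.1 and 14.7 CPM in the 32-cell libraries and 0.232, 0.561, 0.541, 0.413 and 0.321 CPM in the 16-cell libraries. It was above 10 CPM in every 32-cell library and under 1 CPM in every 16-cell library (log2 change 3.54, SE 0.23, adjusted p = 6.6e-15). Adh1, an alcohol dehydrogenase, had 14.3, 8.54, 15.2 and 9.93 CPM in the 32-cell libraries, and among the 16-cell libraries was at 0.0902 CPM in replicate 3 and at 0 in the other 4. Slc2a3, a high-affinity glucose transporter, averaged 275 ± 28.2 CPM in 32-cell embryos and 58.5 ± 11.6 CPM in 16-cell embryos (log2 change 2.23, SE 0.38, adjusted p = 1.7e-05). Blastocyst means, given as a description, were 3552 CPM for Krt8, 10179 CPM for Krt18, 13405 CPM for Fabp3, 4156 CPM for Lgals1 and 8095 CPM for Adh1.

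Of 23 trophectoderm regulators, 7 were higher (30.4%) and 6 lower (26.1%), against 8.49% and 12.2% over all genes, with a median of 0.32. Id2, an inhibitor of basic helix-loop-helix factors and an early mark of outer cells, had 87.3, 76.1, 86.6 and 91.1 CPM in the 32-cell libraries and 4.36, 3.67, 9.61, 7.42 and 3.46 CPM in the 16-cell libraries. The 32-cell libraries lay far above the 16-cell libraries, and the log2 change was 3.77 (SE 0.27, adjusted p = 9.4e-14). At earlier stages it averaged 0.195 CPM in early 8-cell embryos, and it reached 3632 CPM in blastocysts. Gata3, a transcription factor that acts beside CDX2 in trophectoderm, had 541, 248, 265 and 329 CPM in the 32-cell libraries and 99.4, 136, 131, 81.8 and 107 CPM in the 16-cell libraries. Replicate 1 was the highest of the 32-cell group, and the groups did not overlap (log2 change 1.58, SE 0.29, adjusted p = 5.1e-05). Elf3, an epithelial ETS factor, averaged 419 ± 52.9 CPM in 32-cell embryos and 165 ± 34.9 CPM in 16-cell embryos (log2 change 1.36, SE 0.28, adjusted p = 3.9e-04). Klf6, a zinc-finger factor, averaged 41.3 ± 4.08 CPM in 32-cell embryos and 8.80 ± 1.26 CPM in 16-cell embryos (log2 change 2.11, SE 0.26, adjusted p = 7.5e-08). Dppa1, a gene of early embryos with little described function, averaged 16.7 ± 2.46 CPM in 32-cell embryos and 0.183 ± 0.124 CPM in 16-cell embryos and was under 1 CPM in all 16-cell libraries (log2 change 3.90, SE 0.25, adjusted p = 6.6e-15). The other 2 that rose were near or under 3 CPM: Gata2 (0.558 against 0.0577 CPM) and Msx2 (2.51 against 1.44 CPM). The Gata2 call was lost without any single library other than 32-cell replicate 2 or 16-cell replicate 2 or 3 (adjusted p up to 0.097). The Msx2 call was lost with a pseudocount of 0.1 or with the replicate numbers as a block (adjusted p up to 0.25).

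Cdx2, the homeobox factor that maintains trophectoderm identity, did not pass. It had 20.4, 5.22, 5.95 and 14.4 CPM in the 32-cell libraries and 5.52, 6.37, 6.63, 5.00 and 4.11 CPM in the 16-cell libraries. Replicates 1 and 4 of the 32-cell group were above all 16-cell libraries, while replicates 2 and 3 lay among them, and the log2 change was 0.76 (SE 0.32, adjusted p = 0.088). The call depended on the fit: the adjusted p was 0.043 with the 9 libraries alone, and without 32-cell replicate 2 or 3 the change was 1.03 or 0.98 and passed. Without 32-cell replicate 1 it was 0.43 (adjusted p = 0.45). Eomes, a T-box factor of the trophoblast lineage, averaged 3.61 ± 0.624 CPM in 32-cell embryos and 2.31 ± 0.755 CPM in 16-cell embryos and did not pass (adjusted p = 0.39, or 0.028 with the 9 libraries alone). Tead4, the DNA-binding partner of YAP required for trophectoderm, fell. It had 71.1, 38.9, 40.1 and 47.3 CPM in the 32-cell libraries and 91.3, 118, 117, 117 and 129 CPM in the 16-cell libraries, with no overlap between groups (log2 change -1.23, SE 0.19, adjusted p = 5.2e-06). Tfap2c, an AP-2 factor of the same network, averaged 44.3 ± 15.1 CPM in 32-cell embryos and 84.9 ± 8.94 CPM in 16-cell embryos (log2 change -0.97, SE 0.18, adjusted p = 1.0e-04). Hand1, a basic helix-loop-helix factor of later trophoblast giant cells, averaged 6.26 ± 1.53 CPM in 32-cell embryos and 25.4 ± 8.05 CPM in 16-cell embryos (log2 change -1.84, SE 0.23, adjusted p = 4.9e-08). The other lower regulators were Klf5 (134 against 218 CPM, -0.74, adjusted p = 0.024), Sbno1 (35.0 against 53.9 CPM, -0.60, adjusted p = 0.0051) and Id1, given below. Klf5 and Sbno1 were not followed singly through the other settings. Lower calls in the list numbered 5 after median-ratio scaling and 4 after quantile scaling. 

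**Figure D3:**
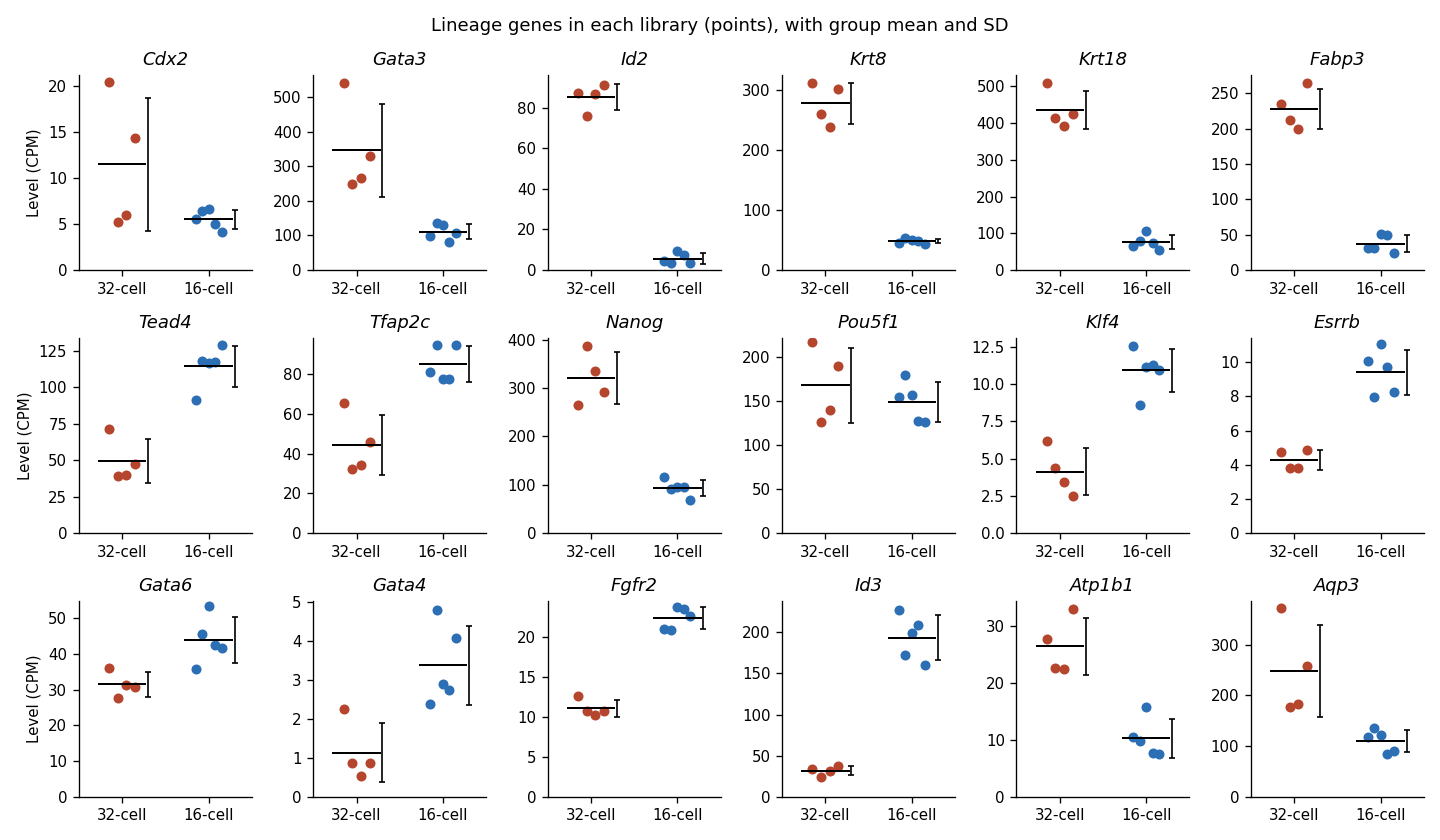
Level in CPM (y axis, from 0) of 18 lineage, signalling and transport genes in each early 32-cell library (red, left) and early 16-cell library (blue, right); lines are group means and bars SD (n = 4 and 5). Krt8, Krt18, Fabp3, Id2, Nanog and Gata3 separate upward and Tead4, Tfap2c, Klf4, Esrrb, Fgfr2 and Id3 downward, while Cdx2, Pou5f1 and Gata6 overlap.

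Nanog was the only member of the inner cell mass and epiblast list to pass as higher, while 8 of 26 members passed as lower (30.8%, against 12.2% over all genes) and the list's median was -0.25. With the 9 libraries alone 3 members were higher and 11 lower. Nanog, the homeobox factor of the epiblast, had 265, 387, 336 and 293 CPM in the 32-cell libraries and 116, 92.5, 95.5, 95.5 and 68.4 CPM in the 16-cell libraries. The groups were far apart, with all 32-cell libraries higher, and the log2 change was 1.77 (SE 0.18, adjusted p = 8.9e-10). Its level at 32 cells was the highest of the 6 stages from early 8-cell embryo to blastocyst, which averaged 27.5, 20.1, 25.5, 93.6, 320.3 and 47.7 CPM in order of age. Pou5f1, the POU factor OCT4, had 218, 127, 139.9 and 190.5 CPM in the 32-cell libraries and 155, 180.1, 158, 128 and 126.5 CPM in the 16-cell libraries. Its ranges overlapped, and it did not pass (log2 change 0.15, SE 0.22, adjusted p = 0.8). Sox2, the earliest factor restricted to inner cells in mouse, stayed under 1 CPM in every library (0.315, 0.373, 0.684 and 0.614 CPM at 32 cells and 0.0581, 0.102, 0.0902, 0.155 and 0.107 CPM at 16 cells); the groups did not overlap, but the gene did not pass (adjusted p = 0.26), and counting error is large at such levels.

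The genes of this list that fell included some factors of naive pluripotency, but 17 of its 26 members did not pass. Abundant members that did not pass were Tfcp2l1 (196 against 201 CPM), Zfp42 (163 against 141 CPM) and Dppa5a (3882 against 2757 CPM). With the 9 libraries alone Dppa5a passed as higher (adjusted p = 3.0e-06). Spic, an ETS factor, averaged 205 ± 17.5 CPM in 32-cell embryos and 659 ± 149 CPM in 16-cell embryos (log2 change -1.65, SE 0.27, adjusted p = 1.2e-05). Nr5a2, a nuclear receptor that can drive Pou5f1, averaged 17.4 ± 1.76 CPM in 32-cell embryos and 51.1 ± 6.66 CPM in 16-cell embryos (log2 change -1.49, SE 0.17, adjusted p = 1.8e-08). Tdgf1, a coreceptor of NODAL, averaged 44.0 ± 8.76 CPM in 32-cell embryos and 123 ± 37.9 CPM in 16-cell embryos (log2 change -1.43, SE 0.30, adjusted p = 3.4e-04). Klf4 (4.12 against 10.9 CPM, -1.26) and Esrrb (4.30 against 9.40 CPM, -0.97), factors of the embryonic stem cell network, also fell, as did Klf2 (2.33 against 9.55 CPM). Tdh, the threonine dehydrogenase abundant in mouse stem cells, was lower (log2 change -1.05, SE 0.37, adjusted p = 0.04); its fit leaves out 1 morula library with no value. The Tdh call was lost without any single library other than 32-cell replicate 2, in the fit of 6 stages, after median-ratio scaling, with no filter or after quantile scaling (adjusted p up to 0.11). Fbxo15, an F-box protein, was also lower (2351 against 4258 CPM, -0.87). The libraries of the groups did not overlap at 4 higher and 9 lower of the 26 members, against 13.1% and 17.8% over all genes.

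Primitive endoderm genes were mostly low. Of 18 tested, 2 were higher (1 without 32-cell replicate 1 or 4), 3 were lower and 3 reached 10 CPM in either group. The shares, 11.1% higher and 16.7% lower, stood against 8.49% and 12.2% over all genes. Gata6, the earliest primitive endoderm factor, had 36.2, 27.6, 31.3 and 30.7 CPM in the 32-cell libraries and 35.7, 45.6, 53.5, 42.6 and 41.7 CPM in the 16-cell libraries. The groups overlapped and it did not pass (log2 change -0.46, SE 0.21, adjusted p = 0.12), though its adjusted p was 0.0036 with the 9 libraries alone. Gata4, which follows GATA6, averaged 1.12 ± 0.763 CPM in 32-cell embryos and 3.37 ± 1.02 CPM in 16-cell embryos (log2 change -1.07, SE 0.20, adjusted p = 6.9e-05). Cited1, a transcriptional coregulator, averaged 145 ± 25.0 CPM in 32-cell embryos and 296 ± 31.4 CPM in 16-cell embryos (log2 change -1.04, SE 0.26, adjusted p = 0.0029). Sox17 was under 1 CPM in all 9 libraries, and Pdgfra, a receptor of the same lineage, averaged 2.08 ± 0.501 CPM in 32-cell embryos and 1.24 ± 0.503 CPM in 16-cell embryos (adjusted p = 0.51, or 0.034 with the 9 libraries alone). The higher genes were Sparc, a matrix protein (2.81 against 0.737 CPM), and Hnf4a, a nuclear receptor (1.04 against 0.129 CPM).

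Fgfr2, a receptor for FGF4 that trophectoderm and primitive endoderm use, had 12.6, 10.8, 10.2 and 10.7 CPM in the 32-cell libraries and 21.0, 20.9, 23.8, 23.5 and 22.6 CPM in the 16-cell libraries. It was lower in every 32-cell library (log2 change -0.96, SE 0.24, adjusted p = 0.0025). Fgfr1 averaged 11.4 ± 1.99 CPM in 32-cell embryos and 11.1 ± 1.19 CPM in 16-cell embryos and its ligand Fgf4 2.05 ± 0.997 CPM in 32-cell embryos and 2.43 ± 0.564 CPM in 16-cell embryos; neither passed, with log2 changes of 0.04 and -0.21. With single libraries left out the change of Fgf4 ranged from -0.39 to -0.03. In the FGF and ERK list 9 of 28 members fell (32.1%, against 12.2% over all genes) and 0 passed as higher with limma (1 at an unadjusted p under 0.05, and 4 with the 9 libraries alone), with a median of -0.32. After median-ratio or quantile scaling 7 were lower and 1 higher. The lower genes included several signalling proteins behind the receptor. Grb2, the adaptor that couples receptors to RAS, averaged 12.3 ± 0.551 CPM in 32-cell embryos and 39.9 ± 2.13 CPM in 16-cell embryos (log2 change -1.61, SE 0.17, adjusted p = 1.5e-09). The RAS exchange factor Sos1 (9.17 against 20.7 CPM, -1.11) and the kinases Map2k1 (24.3 against 47.6 CPM, -0.94) and Map2k2 (36.2 against 87.8 CPM, -1.24) were lower as well. Spry2, a feedback inhibitor of the pathway, averaged 149 ± 39.6 CPM in 32-cell embryos and 89.3 ± 23.9 CPM in 16-cell embryos and did not pass (adjusted p = 0.24, or 0.0046 with the 9 libraries alone).

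Of 24 Hippo pathway genes tested, 11 were lower (45.8%, against 12.2% over all genes) and 2 higher (8.33%, close to the 8.49% over all genes). Only 1 was higher without 32-cell replicate 1. The median was -0.60, or -0.48 after median-ratio scaling. The lower ones included parts of the kinase core. Stk4, the upstream kinase MST1, averaged 17.4 ± 1.08 CPM in 32-cell embryos and 40.4 ± 6.69 CPM in 16-cell embryos (log2 change -1.16, SE 0.15, adjusted p = 2.0e-07). The MOB1 genes Mob1a (25.8 against 71.5 CPM, -1.43) and Mob1b (11.3 against 35.1 CPM, -1.55) fell further. Stk3, the related kinase MST2 (9.99 against 11.9 CPM, adjusted p = 0.76), and Sav1 (0.393 against 0.474 CPM, adjusted p = 0.985) did not pass. Lats2, the kinase that phosphorylates YAP, averaged 5.72 ± 1.76 CPM in 32-cell embryos and 9.28 ± 1.36 CPM in 16-cell embryos (log2 change -0.64, SE 0.20, adjusted p = 0.019); its adjusted p rose to 0.11 at most without 32-cell replicate 2 or 3. Lats1 (1.27 against 3.60 CPM) and Nf2, the merlin scaffold (10.1 against 17.7 CPM), were lower. Of the junction-bound inhibitors of YAP, Amotl2 fell (7.64 against 15.3 CPM, -0.90 (SE 0.26, adjusted p = 0.0088); adjusted p = 0.13 with a pseudocount of 0.1) and Amot averaged 3.73 ± 0.466 CPM in 32-cell embryos and 6.39 ± 0.566 CPM in 16-cell embryos and did not pass (adjusted p = 0.1, or 8.1e-04 with the 9 libraries alone).

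Of the coactivators, Yap1 averaged 7.31 ± 0.814 CPM in 32-cell embryos and 11.2 ± 1.29 CPM in 16-cell embryos (log2 change -0.56, SE 0.16, adjusted p = 0.011), and this call was lost after median-ratio and quantile scaling (adjusted p up to 0.07). Wwtr1, which encodes TAZ, averaged 36.3 ± 9.07 CPM in 32-cell embryos and 48.0 ± 4.15 CPM in 16-cell embryos and did not pass (adjusted p = 0.13, or 0.014 with the 9 libraries alone). The 2 members that rose were Tead2 (3.25 against 1.21 CPM) and the phosphatase Ptpn14 (1.17 against 0.351 CPM). The Ptpn14 call was lost without 32-cell replicate 1 (adjusted p up to 0.098). Among 15 genes known as YAP and TEAD targets in other cells, 3 were higher (1 without 32-cell replicate 1) and 5 lower (20% and 33.3%, against 8.49% and 12.2% over all genes), and the median of -0.04 turned to 0.04 after median-ratio scaling. Myc, the growth factor-responsive transcription factor, had 8.90, 4.14, 6.84 and 5.53 CPM in the 32-cell libraries and 40.0, 23.0, 24.3, 24.3 and 25.2 CPM in the 16-cell libraries. Replicate 1 stood out as the highest of the 16-cell group, and the groups did not overlap (log2 change -1.96, SE 0.31, adjusted p = 7.5e-06). Birc5, the mitotic survivin, averaged 465 ± 14.6 CPM in 32-cell embryos and 269 ± 11.8 CPM in 16-cell embryos (log2 change 0.79, SE 0.14, adjusted p = 4.1e-05). The secreted Ccn1 averaged 13.1 ± 3.03 CPM in 32-cell embryos and 12.5 ± 2.82 CPM in 16-cell embryos with a change of 0.06.

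The Notch list, another route to Cdx2 in outer cells, had 4 of 19 members lower (21.1%, against 12.2% over all genes) and 0 higher with limma (0 at an unadjusted p under 0.05, 2 with the 9 libraries alone), with a median of -0.17. Rbpj, the DNA-binding factor of the pathway, averaged 46.8 ± 3.42 CPM in 32-cell embryos and 76.7 ± 4.82 CPM in 16-cell embryos (log2 change -0.70, SE 0.21, adjusted p = 0.012). Its target Hes1 averaged 38.3 ± 12.1 CPM in 32-cell embryos and 65.9 ± 7.80 CPM in 16-cell embryos (log2 change -0.81, SE 0.25, adjusted p = 0.016); without 32-cell replicate 2 or 3 the adjusted p was up to 0.11. The protease Adam17 (50.5 against 84.5 CPM, -0.73) and the ligand Dll3 (4.62 against 9.54 CPM, -0.89) were the others.

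In the TGF-beta, BMP and WNT list, 3 of 28 members rose (1 without 32-cell replicate 1) and 6 fell, with a median of 0.01. These are 10.7% and 21.4%, against 8.49% and 12.2% over all genes. The family of ID inhibitors divided. Id3, a usual BMP target and the close relative of Id2, had 33.4, 24.4, 30.8 and 37.2 CPM in the 32-cell libraries and 228, 172, 199, 209 and 160.1 CPM in the 16-cell libraries. The groups were far apart, with every 32-cell library below every 16-cell library (log2 change -2.59, SE 0.35, adjusted p = 4.5e-07). Id1 went the same way at a low level, 0.499 ± 0.107 CPM in 32-cell embryos and 2.30 ± 0.465 CPM in 16-cell embryos (log2 change -1.13, SE 0.23, adjusted p = 2.7e-04). Id2, as above, rose by 3.77 on the log2 scale. The WNT antagonist Sfrp1 fell (6.80 against 15.8 CPM, -1.08). The Sfrp1 call was lost without 32-cell replicate 2 or 3 or 16-cell replicate 3 or with a pseudocount of 0.1 (adjusted p up to 0.075). The WNT acyltransferase Porcn (8.86 against 16.3 CPM, -0.86) and the coreceptor Lrp6 (2.62 against 5.65 CPM, -0.90) fell. The BMP receptor Bmpr2 rose (25.4 against 17.0 CPM, 0.57). The Bmpr2 call was lost without 32-cell replicate 1 or 2 or 16-cell replicate 2 (adjusted p up to 0.08). The convertase Furin was the third higher member (3.37 against 1.60 CPM, 0.75). The Furin call was lost without 32-cell replicate 1 or 16-cell replicate 1 or 5 (adjusted p up to 0.1).

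**Figure D4:**
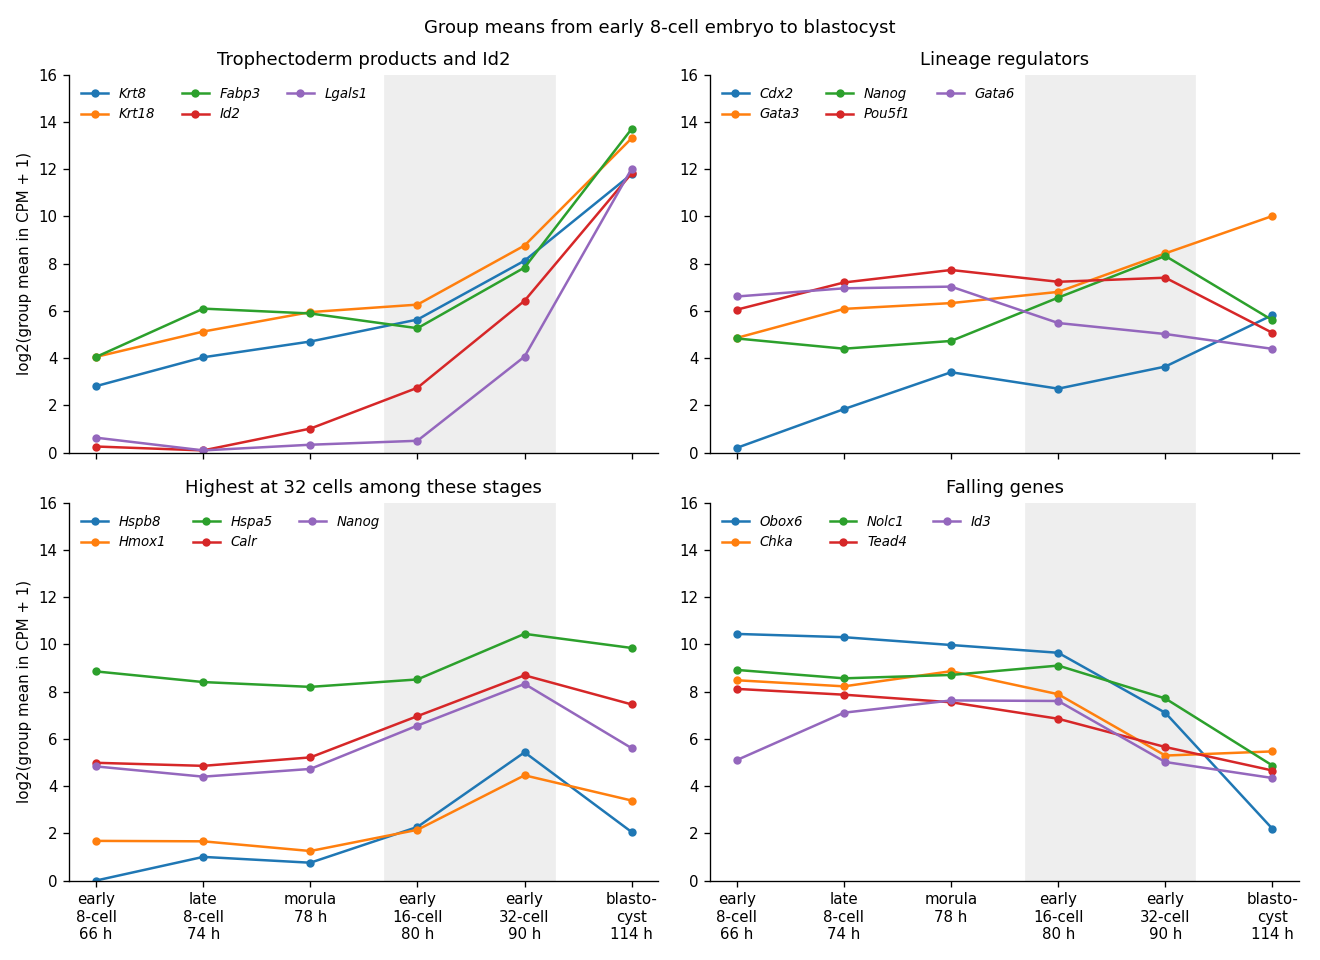
Group means as log2(CPM + 1) (y axis) at 6 stages from early 8-cell embryo (66 h) to blastocyst (114 h); the grey band holds the 2 stages compared. The trophectoderm products and Id2 climb on to the blastocyst, Nanog, Hspb8, Hmox1, Hspa5 and Calr are highest at 32 cells, and Obox6, Nolc1, Tead4 and Id3 fall on to the blastocyst.

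Genes that build an epithelium shifted by component. Among 29 adherens and tight junction genes, 5 were higher (17.2%) and 3 lower (10.3%), against 8.49% and 12.2% over all genes, with a median of 0.13; 1 was lower without 16-cell replicate 5 or 32-cell replicate 2, 3 or 4. Epcam, an epithelial adhesion molecule, had 774, 709, 766 and 858 CPM in the 32-cell libraries and 220.3, 169, 166, 114 and 131 CPM in the 16-cell libraries. The groups were well apart (log2 change 2.30, SE 0.17, adjusted p = 1.8e-13). Cldn6, a claudin of tight junctions, averaged 82.1 ± 18.9 CPM in 32-cell embryos and 21.1 ± 1.11 CPM in 16-cell embryos (log2 change 1.88, SE 0.27, adjusted p = 1.6e-06), while Cldn4 averaged 498 ± 276 CPM in 32-cell embryos and 272 ± 43.6 CPM in 16-cell embryos with overlap and did not pass (adjusted p = 0.19, or 0.016 with the 9 libraries alone). Desmosome genes completed the higher set, the cadherins Dsg2 (4.23 against 0.695 CPM, 1.62) and Dsc2 (3.82 against 1.24 CPM, 1.09) and the plaque protein Dsp (9.13 against 2.95 CPM, 1.34). With a pseudocount of 0.1 the adjusted p was 0.067 for Dsc2 and 0.16 for Dsp. Lower were the tight junction proteins Ocln, which averaged 37.5 ± 1.34 CPM in 32-cell embryos and 68.8 ± 8.34 CPM in 16-cell embryos (log2 change -0.85, SE 0.30, adjusted p = 0.041), and Marveld2 (6.40 against 12.5 CPM, -0.85), and the integrin Itgb4 (2.74 against 5.68 CPM, -0.89). The Ocln call was lost without any single library other than 16-cell replicate 2, in the fit of 6 stages, after median-ratio scaling, with no filter or after quantile scaling (adjusted p up to 0.099). The Itgb4 call was lost without 32-cell replicate 2, 3 or 4 or 16-cell replicate 2 or 5, in the fit of 6 stages, with no filter or after removal of the length trend (adjusted p up to 0.16).

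Of 30 apical polarity genes, 5 were higher and 5 lower (16.7% each, against 8.49% and 12.2% over all genes) with a median of 0.03. Higher calls numbered 8 with the 9 libraries alone, 9 after median-ratio scaling and 3 without 32-cell replicate 1 or 4, and lower calls 1 without 32-cell replicate 2 and 3 without 32-cell replicate 3 or 16-cell replicate 2 or 5. Within the PAR6 family, Pard6g was higher (4.77 against 1.02 CPM, 1.45) and Pard6b lower (12 against 22.4 CPM, -0.87), though the Pard6b call was lost without 32-cell replicate 2 or 3 or with a pseudocount of 0.1 (adjusted p up to 0.076). Crb3, an apical transmembrane protein, averaged 63.0 ± 10.5 CPM in 32-cell embryos and 111 ± 4.33 CPM in 16-cell embryos (log2 change -0.82, SE 0.16, adjusted p = 2.3e-04). Linkers of membrane to actin were higher or did not pass. Moesin, the linker encoded by Msn, averaged 4.46 ± 0.843 CPM in 32-cell embryos and 1.5 ± 0.610 CPM in 16-cell embryos (1.15). The Msn call was lost with a pseudocount of 0.1 (adjusted p up to 0.052). The scaffold Slc9a3r1 averaged 5.85 ± 1.28 CPM in 32-cell embryos and 2.74 ± 0.713 CPM in 16-cell embryos (0.88). The Slc9a3r1 call was lost without any single library other than 32-cell replicate 2 or 16-cell replicate 2 or 5, with no filter or with a pseudocount of 0.1 (adjusted p up to 0.16). Ezr, which encodes ezrin, averaged 11.5 ± 2.85 CPM in 32-cell embryos and 5.62 ± 0.511 CPM in 16-cell embryos without overlap and did not pass (adjusted p = 0.085, or 2.0e-04 with the 9 libraries alone). The myosin chains Myl12b (108 against 46.3 CPM, 1.22) and Myh9 (8.07 against 3.01 CPM, 1.08) were higher. The Myh9 call was lost without 32-cell replicate 1 or 4 (adjusted p up to 0.067).

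Of 19 genes of fluid transport for the blastocoel, 2 were higher (10.5%, against 8.49% over all genes) and 4 lower (21.1%, against 12.2%), with a median of -0.13. Atp1b1, the beta subunit of the sodium pump that drives cavitation, had 27.6, 22.6, 22.4 and 33.0 CPM in the 32-cell libraries and 10.4, 9.76, 15.7, 7.62 and 7.45 CPM in the 16-cell libraries. All 32-cell libraries were above all 16-cell libraries (log2 change 1.32, SE 0.27, adjusted p = 3.3e-04). The water and glycerol channel Aqp3 averaged 247 ± 90.7 CPM in 32-cell embryos and 109 ± 22.0 CPM in 16-cell embryos (log2 change 1.13, SE 0.26, adjusted p = 0.0015). In contrast, the channel Aqp9 averaged 70.6 ± 6.70 CPM in 32-cell embryos and 148 ± 12.2 CPM in 16-cell embryos (log2 change -1.06, SE 0.20, adjusted p = 7.8e-05), and Aqp11 was lower as well (1.32 against 6.28 CPM). The ion carriers Slc12a2, a sodium, potassium and chloride cotransporter, and Kcnk5, a potassium channel, fell most. Slc12a2 averaged 13.3 ± 0.697 CPM in 32-cell embryos and 50.5 ± 9.25 CPM in 16-cell embryos (log2 change -1.83, SE 0.18, adjusted p = 2.7e-10) and Kcnk5 11.2 ± 2.98 CPM in 32-cell embryos and 37.7 ± 2.39 CPM in 16-cell embryos (log2 change -1.71, SE 0.18, adjusted p = 3.0e-09).

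In the cytoskeleton list 22 of 35 members were higher (62.9%, against 8.49% over all genes) and 1 lower (2.86%, against 12.2%), with a median of 0.73. Without 32-cell replicate 1, 2 were lower. Actg1, cytoplasmic gamma actin, had 4828, 3889, 4537 and 4839.6 CPM in the 32-cell libraries and 1572, 1630.3, 1666, 1251 and 1196 CPM in the 16-cell libraries. All 32-cell libraries were above all 16-cell libraries (log2 change 1.64, SE 0.17, adjusted p = 1.0e-09). Anxa2, an annexin that binds membranes to actin, averaged 122 ± 15.8 CPM in 32-cell embryos and 23.9 ± 3.05 CPM in 16-cell embryos (log2 change 2.31, SE 0.28, adjusted p = 3.2e-08). Tagln2, an actin-bundling protein, averaged 214 ± 29.2 CPM in 32-cell embryos and 72.6 ± 6.89 CPM in 16-cell embryos (log2 change 1.54, SE 0.25, adjusted p = 9.7e-06). Among tubulins that rose were Tubb5 at 102 ± 21.5 CPM in 32-cell embryos and 29.4 ± 2.74 CPM in 16-cell embryos (log2 change 1.74, SE 0.30, adjusted p = 2.0e-05) and Tuba1a at 24.3 ± 4.41 CPM in 32-cell embryos and 8.05 ± 2.10 CPM in 16-cell embryos (log2 change 1.5, SE 0.37, adjusted p = 0.0023; adjusted p = 0.058 with a pseudocount of 0.1). Tubulin and actin genes have close relatives and processed copies, so reads may be divided among them. The fall was in Lasp1, an actin-binding adaptor (36.3 against 72.4 CPM, -0.98). The Lasp1 call was lost with a pseudocount of 0.1 (adjusted p up to 0.0504).

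Of 37 genes of stress response and unfolded protein handling, 21 were higher (56.8%, against 8.49% over all genes) and 3 lower (8.11%, against 12.2%). The other 13 did not pass, and the median was 0.70. Hspa5, the chaperone BiP, had 1287, 1501, 1535 and 1263 CPM in the 32-cell libraries and 470.4, 334, 405, 307 and 309.9 CPM in the 16-cell libraries. No libraries overlapped (log2 change 1.95, SE 0.27, adjusted p = 5.2e-07). Other chaperones of the endoplasmic reticulum were higher too. Calr, calreticulin, averaged 413 ± 29.9 CPM in 32-cell embryos and 124 ± 17.3 CPM in 16-cell embryos (log2 change 1.74, SE 0.19, adjusted p = 4.7e-09). Hsp90b1 averaged 206 ± 31.7 CPM in 32-cell embryos and 59.9 ± 7.24 CPM in 16-cell embryos (log2 change 1.76, SE 0.22, adjusted p = 1.1e-07). The disulfide isomerase Pdia6 averaged 190.5 ± 3.53 CPM in 32-cell embryos and 54.0 ± 6.83 CPM in 16-cell embryos (log2 change 1.81, SE 0.16, adjusted p = 2.3e-11). Xbp1, a transcription factor of the unfolded protein response, was higher (36.0 against 13.8 CPM, 1.34), whereas Atf4, a factor of the integrated stress response, was lower (54.5 against 103 CPM, -0.91) together with Trib3 (2.45 against 5.73 CPM, -0.97) and the chaperone cofactor Dnajb1 (54.1 against 96.4 CPM, -0.82). The Trib3 call was lost without 32-cell replicate 2 or 3 or in the fit of 6 stages (adjusted p up to 0.065). Prdx1, a peroxiredoxin, averaged 1218 ± 124 CPM in 32-cell embryos and 394 ± 51.4 CPM in 16-cell embryos (log2 change 1.63, SE 0.16, adjusted p = 1.7e-10). Hmox1, heme oxygenase, averaged 21.0 ± 3.62 CPM in 32-cell embryos and 3.43 ± 1.33 CPM in 16-cell embryos (log2 change 2.35, SE 0.31, adjusted p = 2.0e-07). Hspb8, a small heat shock protein, was among the largest rises of all genes. It had 48.0, 35.8, 43.4 and 41.4 CPM in the 32-cell libraries and 5.06, 2.75, 5.55, 2.84 and 2.93 CPM in the 16-cell libraries, with wide separation (log2 change 3.20, SE 0.26, adjusted p = 4.8e-12). Blastocysts averaged 3.15 CPM.

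**Figure D5:**
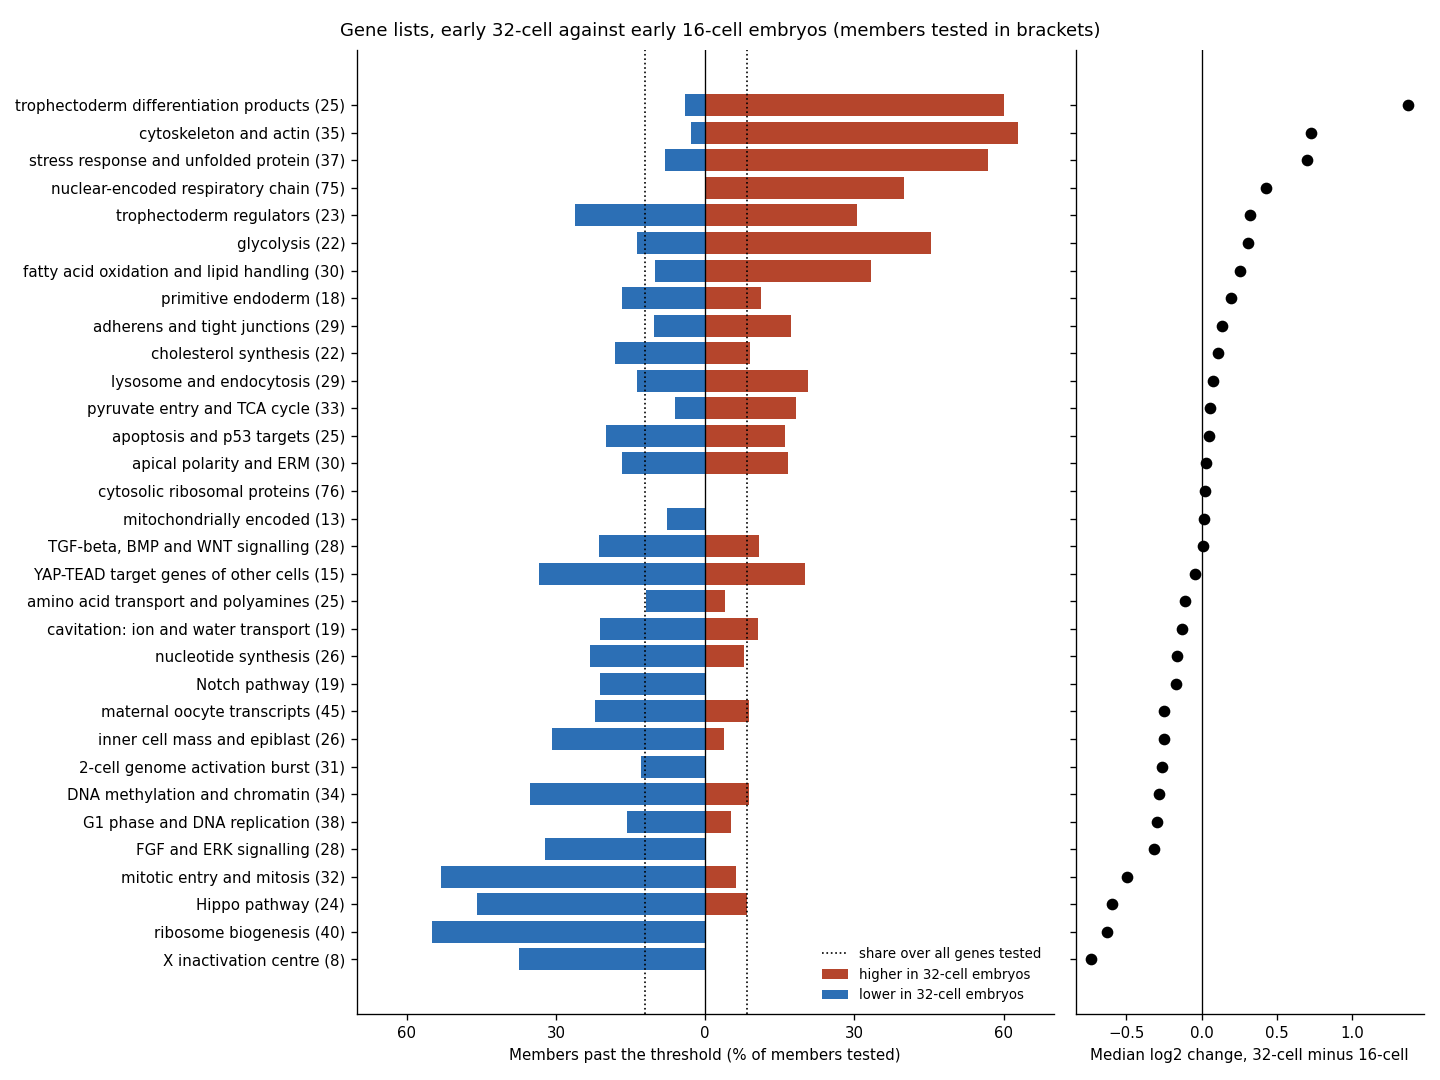
Share of tested members (x axis, left panel, percent) of 32 gene lists that were higher (red, right of 0) or lower (blue, left of 0) in 32-cell embryos, with the shares over all genes tested as dotted lines (8.49% and 12.2%), and the median log2 change of each list (right panel). Trophectoderm products, cytoskeleton and stress lists stand at the top with medians of 1.37, 0.73 and 0.70, and ribosome biogenesis and Hippo lists near the bottom with -0.63 and -0.60.

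Of 22 glycolysis genes, 10 were higher (45.5%) and 3 lower (13.6%), against 8.49% and 12.2% over all genes, with a median of 0.31. Gapdh, glyceraldehyde-3-phosphate dehydrogenase, had 21.7, 14.8, 20.1 and 28.6 CPM in the 32-cell libraries and 1.57, 1.99, 5.59, 2.42 and 2.21 CPM in the 16-cell libraries. Replicate 3 was the highest of the 16-cell group and still below all 32-cell libraries (log2 change 2.62, SE 0.23, adjusted p = 2.7e-11). The genome holds many processed copies of Gapdh, so its level is uncertain. Pkm, pyruvate kinase, averaged 57.5 ± 12.6 CPM in 32-cell embryos and 17.3 ± 2.91 CPM in 16-cell embryos (log2 change 1.67, SE 0.23, adjusted p = 4.7e-07). Tpi1, triosephosphate isomerase, averaged 16.0 ± 1.81 CPM in 32-cell embryos and 6.75 ± 1.92 CPM in 16-cell embryos (log2 change 1.16, SE 0.22, adjusted p = 1.2e-04). Eno1, enolase, averaged 40.3 ± 7.97 CPM in 32-cell embryos and 14.4 ± 3.61 CPM in 16-cell embryos (log2 change 1.43, SE 0.29, adjusted p = 3.3e-04), with its copy Eno1b moving alike (1.51). The falls were in Hk1, a hexokinase (2.68 against 7.36 CPM), Ldhb, a lactate dehydrogenase subunit (1.38 against 4.05 CPM), and Pfkfb3, which sets the rate of phosphofructokinase (0.611 against 2.22 CPM).

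In the nuclear-encoded respiratory chain, 30 of 75 genes were higher (40%, against 8.49% over all genes) and 0 lower with limma (0 at an unadjusted p under 0.05), with a median of 0.43; with the 9 libraries alone 56 were higher and 0 lower. The individual changes were modest. Ndufb9, a complex I subunit, averaged 123 ± 3.03 CPM in 32-cell embryos and 61.6 ± 6.79 CPM in 16-cell embryos (log2 change 0.99, SE 0.16, adjusted p = 5.1e-06). Cox5a, a complex IV subunit, averaged 552 ± 28.1 CPM in 32-cell embryos and 325 ± 21.5 CPM in 16-cell embryos (log2 change 0.76, SE 0.20, adjusted p = 0.0037). Of the 13 mitochondrially encoded subunits, 0 passed as higher with limma (1 at an unadjusted p under 0.05, 3 with the 9 libraries alone) and 1 fell (7.69%), against 8.49% and 12.2% over all genes. The fall was in mt-Nd3 (131 against 403 CPM, -1.60 (SE 0.53, adjusted p = 0.025)). The mt-Nd3 call was lost without 32-cell replicate 1 or 3 or 16-cell replicate 4, in the fit of 6 stages or with no filter (adjusted p up to 0.065). Their summed share was 5.39 ± 0.129% of CPM at 32 cells and 4.91 ± 0.428% at 16 cells (exact permutation p = 0.0556, adjusted over 4 values 0.0741). Without 16-cell replicate 4 the difference was 0.641 percentage points instead of 0.485 (exact permutation p = 0.0286).

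Of 33 genes of pyruvate entry and the tricarboxylic acid cycle, 6 were higher (18.2%) and 2 lower (6.06%), against 8.49% and 12.2% over all genes, with a median of 0.05; 13 were higher with the 9 libraries alone and 10 after median-ratio scaling, and 1 was lower without any single library other than 16-cell replicate 2. Idh3a, a subunit of isocitrate dehydrogenase, averaged 165 ± 15.4 CPM in 32-cell embryos and 58.8 ± 7.34 CPM in 16-cell embryos (log2 change 1.48, SE 0.18, adjusted p = 7.0e-08). Mdh1, the cytosolic malate dehydrogenase, averaged 38.1 ± 3.70 CPM in 32-cell embryos and 12.4 ± 3.84 CPM in 16-cell embryos (log2 change 1.59, SE 0.22, adjusted p = 5.2e-07). Mpc2, part of the carrier that admits pyruvate to mitochondria, was lower at 106 ± 9.38 CPM in 32-cell embryos and 179 ± 18.5 CPM in 16-cell embryos (log2 change -0.75, SE 0.15, adjusted p = 2.5e-04), as was Pdhx of the pyruvate dehydrogenase complex (47.7 against 70.9 CPM). The Pdhx call was lost without any single library other than 16-cell replicate 2, in the fit of 6 stages, after median-ratio scaling, with no filter or after quantile scaling (adjusted p up to 0.11). For fatty acid oxidation and lipid handling, 10 of 30 genes were higher (33.3%) and 3 lower (10%), against 8.49% and 12.2% over all genes, with a median of 0.25. With the 9 libraries alone 5 were lower. Cpt2, which admits fatty acids to mitochondrial oxidation, averaged 18.1 ± 3.37 CPM in 32-cell embryos and 3.89 ± 0.595 CPM in 16-cell embryos (log2 change 1.96, SE 0.40, adjusted p = 3.2e-04). Acsl4, an acyl-CoA synthetase, averaged 9.68 ± 2.05 CPM in 32-cell embryos and 47.4 ± 6.49 CPM in 16-cell embryos (log2 change -2.19, SE 0.21, adjusted p = 2.6e-10). Early 8-cell embryos averaged 722 CPM. Eci1 (6.99 against 18.2 CPM) and Acadm (311 against 465 CPM), enzymes of fatty acid oxidation, were the other falls. Chka, the choline kinase that opens phosphatidylcholine synthesis, had 60.6, 28.0, 34.2 and 30.1 CPM in the 32-cell libraries and 227, 283, 192, 219 and 260.2 CPM in the 16-cell libraries. The groups were well separated, and the fall was among the largest of all genes (log2 change -2.65, SE 0.19, adjusted p = 9.4e-14).

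Of 40 ribosome biogenesis genes, 22 were lower (55%, against 12.2% over all genes) and 0 higher with limma (0 at an unadjusted p under 0.05), with a median of -0.63, or -0.49 after median-ratio scaling; 34 were lower and 1 higher with the 9 libraries alone. Nolc1, a nucleolar chaperone, had 229, 195, 217 and 192 CPM in the 32-cell libraries and 586, 566, 472, 518 and 604 CPM in the 16-cell libraries. All 32-cell libraries were below all 16-cell libraries (log2 change -1.39, SE 0.16, adjusted p = 2.2e-08). Wdr43, of the small subunit processome, averaged 330.5 ± 20.6 CPM in 32-cell embryos and 781 ± 61.4 CPM in 16-cell embryos (log2 change -1.24, SE 0.22, adjusted p = 5.5e-05). The nucleolar helicase Ddx21 averaged 89.7 ± 3.71 CPM in 32-cell embryos and 182 ± 13.9 CPM in 16-cell embryos (log2 change -1.01, SE 0.16, adjusted p = 5.7e-06). Ubtf, which activates ribosomal DNA transcription, averaged 15.9 ± 0.984 CPM in 32-cell embryos and 44.0 ± 6.29 CPM in 16-cell embryos (log2 change -1.40, SE 0.19, adjusted p = 4.1e-07). Of 76 cytosolic ribosomal protein genes, 0 passed with limma in either direction, beside 20.7% of all genes. At an unadjusted p under 0.05 there were 3 (1 higher and 2 lower). With the 9 libraries alone, 10 of the 76 were higher and 12 lower, against 23.5% and 32.1% over all genes in that fit. The median was 0.02. These genes have many processed copies, which makes single values uncertain.

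Among 26 nucleotide synthesis genes, 2 were higher (7.69%) and 6 lower (23.1%), against 8.49% and 12.2% over all genes, with a median of -0.16. With the 9 libraries alone 6 were higher and 11 lower, against 23.5% and 32.1% over all genes in that fit. Impdh2, the step toward guanine nucleotides, averaged 246 ± 30.6 CPM in 32-cell embryos and 535 ± 23.2 CPM in 16-cell embryos (log2 change -1.13, SE 0.12, adjusted p = 2.3e-09). Ppat, the committing step of purine synthesis, averaged 307 ± 23.4 CPM in 32-cell embryos and 605 ± 43.9 CPM in 16-cell embryos (log2 change -0.98, SE 0.18, adjusted p = 9.2e-05). The higher genes were Rrm2, the ribonucleotide reductase subunit (2189.8 against 1187 CPM, 0.88), and Dut, which clears dUTP (166 against 98.9 CPM, 0.75). The Rrm2 call was lost in the fit of 6 stages (adjusted p up to 0.066). In the amino acid and polyamine list 1 of 25 members was higher (4%, against 8.49% over all genes) and 3 lower (12%), close to the 12.2% over all genes. With the 9 libraries alone 9 of the 20 tested were lower, against 32.1% over all genes in that fit. The 3 lower ones were the decarboxylase Amd1 (149.7 against 281 CPM, -0.90), the antizyme inhibitor Azin1 (204 against 428 CPM, -1.06) and spermine synthase Sms (204 against 289 CPM, -0.51). The Sms call was lost without 32-cell replicate 4, after median-ratio scaling or after removal of the length trend (adjusted p up to 0.13). The higher member was the glutamine carrier Slc38a1 (12 against 5.51 CPM, 1.03). The Slc38a1 call was lost with a pseudocount of 0.1 (adjusted p up to 0.29). The median of that list, -0.11, turned to 0.02 after median-ratio scaling.

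Mitotic genes were lower in 17 of 32 cases (53.1%, against 12.2% over all genes) and higher in 2 (6.25%, against 8.49%), with a median of -0.49. After median-ratio scaling 10 were lower, against 10.1% over all genes. With the 9 libraries alone 26 were, against 32.1% over all genes. Kif23, a kinesin of the central spindle, averaged 123 ± 12.5 CPM in 32-cell embryos and 242 ± 15.5 CPM in 16-cell embryos (log2 change -0.97, SE 0.16, adjusted p = 7.5e-06). Kif11, the kinesin that sets spindle bipolarity, averaged 44.4 ± 3.96 CPM in 32-cell embryos and 80.8 ± 3.74 CPM in 16-cell embryos (log2 change -0.85, SE 0.19, adjusted p = 7.3e-04). Cenpe, the kinetochore kinesin, averaged 74.2 ± 7.81 CPM in 32-cell embryos and 144 ± 30.6 CPM in 16-cell embryos (log2 change -0.92, SE 0.14, adjusted p = 4.1e-06). The higher ones were Birc5, described above, and the securin Pttg1 (306 against 176 CPM, 0.82). In the list for G1 phase and replication, 2 of 38 were higher (5.26%) and 6 lower (15.8%), against 8.49% and 12.2% over all genes, with a median of -0.30. With the 9 libraries alone 7 of the 35 tested were higher and 14 lower, against 23.5% and 32.1% over all genes in that fit. Higher calls fell to 0 without 32-cell replicate 1 and to 1 without 32-cell replicate 3 or 16-cell replicate 1 or 4. The licensing factors Cdt1 (56.1 against 122 CPM, -1.15) and Cdc6 (104 against 193 CPM, -0.88) were lower. The Cdc6 call was lost without 32-cell replicate 1 (adjusted p up to 0.052). Cdkn1a, the cell cycle inhibitor p21, averaged 168 ± 45.0 CPM in 32-cell embryos and 105 ± 29.6 CPM in 16-cell embryos with overlap (log2 change 0.69, SE 0.22, adjusted p = 0.022), and its call was lost without 16-cell replicate 1 or 3 or 32-cell replicate 1 or 3 (adjusted p up to 0.13). The p53-responsive genes Btg2 at 30.1 ± 10.6 CPM in 32-cell embryos and 9.85 ± 2.35 CPM in 16-cell embryos (log2 change 1.49, SE 0.26, adjusted p = 2.4e-05) and Ccng1 at 214 ± 35.9 CPM in 32-cell embryos and 84.0 ± 28.6 CPM in 16-cell embryos (log2 change 1.40, SE 0.32, adjusted p = 0.0013) were higher without overlap. In the list of apoptosis and p53 targets as a whole, 4 of 25 were higher (8 with the 9 libraries alone) and 5 lower (2 after quantile scaling). These are 16% and 20%, against 8.49% and 12.2% over all genes.

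Of 34 chromatin regulators, 12 were lower (35.3%, against 12.2% over all genes) and 3 higher (8.82%, close to the 8.49% over all genes), with a median of -0.29. With the 9 libraries alone 6 of the 32 tested were higher, against 23.5% over all genes in that fit. Lower calls numbered 7 after median-ratio or quantile scaling or without 32-cell replicate 2. Smarca4, the BRG1 motor of BAF remodelling complexes, averaged 13.7 ± 3.69 CPM in 32-cell embryos and 33.7 ± 3.90 CPM in 16-cell embryos (log2 change -1.26, SE 0.18, adjusted p = 6.3e-07). Its partner Arid1a averaged 24.7 ± 2.04 CPM in 32-cell embryos and 50.7 ± 2.73 CPM in 16-cell embryos (log2 change -1.01, SE 0.21, adjusted p = 3.7e-04). Uhrf1, which guides maintenance of DNA methylation, was higher at 11.4 ± 4.16 CPM in 32-cell embryos and 2.81 ± 0.437 CPM in 16-cell embryos (log2 change 1.64, SE 0.25, adjusted p = 2.8e-06), with H3f3b, a gene of histone H3.3 (2834 against 1638 CPM, 0.79), and the deacetylase Hdac2 (134 against 78.1 CPM, 0.74). The Hdac2 call was lost without any single library other than 32-cell replicate 3 or 16-cell replicate 3 or 4, in the fit of 6 stages or with no filter (adjusted p up to 0.2). Tdg, the glycosylase that removes oxidised methylcytosine, was among the largest rises. It had 23.0, 17.9, 19.3 and 29.3 CPM in the 32-cell libraries and 2.69, 1.5, 2.96, 2.05 and 2.21 CPM in the 16-cell libraries, with every 32-cell library above every 16-cell library (log2 change 2.83, SE 0.30, adjusted p = 2.3e-09). In the list on X inactivation, 3 of 8 genes were lower (37.5%, against 12.2% over all genes). With limma 0 were higher (0 at an unadjusted p under 0.05). Lower calls numbered 5 with the 9 libraries alone and 1 after quantile scaling. The lower genes were Rlim (96.3 against 169 CPM, -0.81), Zfx (4.49 against 11.7 CPM, -1.22) and Kdm6a (10.1 against 16.6 CPM, -0.66). The Rlim call was lost after quantile scaling (adjusted p up to 0.052). The Kdm6a call was lost without 32-cell replicate 2 or 4 or 16-cell replicate 1 or 5, after median-ratio scaling or after quantile scaling (adjusted p up to 0.092). Xist averaged 16.9 ± 2.97 CPM in 32-cell embryos and 35.4 ± 11.7 CPM in 16-cell embryos and did not pass (adjusted p = 0.14, or 7.9e-04 with the 9 libraries alone).

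Of 31 genes of the 2-cell activation burst, 4 were lower (12.9%, close to the 12.2% over all genes) and 0 higher with limma (0 at an unadjusted p under 0.05), with a median of -0.27. Of the 31, 18 were under 1 CPM in all 9 libraries, a level at which little fall can be seen. With the 9 libraries alone 9 were tested, of which 7 were lower and 0 higher, against 32.1% and 23.5% over all genes in that fit. Obox6, a member of the homeobox family named Obox, had 141, 142, 158 and 105 CPM in the 32-cell libraries and 689.5, 735, 632, 989.6 and 956 CPM in the 16-cell libraries. The groups were far apart (log2 change -2.54, SE 0.19, adjusted p = 4.5e-13). Blastocysts averaged 3.57 CPM. Sp110, a nuclear body protein, averaged 163 ± 33.9 CPM in 32-cell embryos and 662 ± 81.7 CPM in 16-cell embryos (log2 change -2.03, SE 0.17, adjusted p = 1.2e-11). With the spread of all standard stages, Tdpoz2 (2.33 against 13.5 CPM) and Tdpoz1 (2.15 against 6.06 CPM) were the others. The Tdpoz1 call was lost without 32-cell replicate 1 or 16-cell replicate 3 or 4 (adjusted p up to 0.09). Of 45 maternal oocyte genes, 10 were lower (22.2%, against 12.2% over all genes) and 4 higher (7 with the 9 libraries alone, 2 without 16-cell replicate 5 or 32-cell replicate 4), with a median of -0.25, and most lay near or under 10 CPM. Padi6, of the subcortical maternal complex, averaged 7.13 ± 0.804 CPM in 32-cell embryos and 16.7 ± 3.28 CPM in 16-cell embryos (log2 change -1.11, SE 0.16, adjusted p = 9.1e-07). The higher ones were Ooep of the same complex (6.32 against 2.01 CPM), Oas1e (6.05 against 1.10 CPM), Nlrp4f (1.80 against 0.607 CPM) and Tcl1 (2.78 against 1.55 CPM). The Nlrp4f call was lost without 32-cell replicate 4 or 16-cell replicate 5 (adjusted p up to 0.099). The Tcl1 call was lost without 32-cell replicate 1 or 4 or 16-cell replicate 1, 2 or 5, in the fit of 6 stages or with the replicate numbers as a block (adjusted p up to 0.091).

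By size alone, 1777 genes passed, reached 20 CPM in the group where they were higher and had no overlap between libraries. The largest rises among them were Glrx, Id2, Hspb8, Xlr3a, Tpp1, Tdg, Tex19.2, Fabp3, Gapdh, Fabp3-ps1, Krt18 and Gm17276. Glrx, a glutaredoxin, had 28.4, 24.4, 27.9 and 34.4 CPM in the 32-cell libraries and 0.930, 0.510, 2.75, 2.11 and 0.250 CPM in the 16-cell libraries. It lay above 20 CPM in every 32-cell library and under 3 CPM in every 16-cell library (log2 change 3.80, SE 0.32, adjusted p = 6.9e-12). Tpp1, a lysosomal peptidase, averaged 32.0 ± 5.64 CPM in 32-cell embryos and 3.63 ± 0.883 CPM in 16-cell embryos (log2 change 2.84, SE 0.23, adjusted p = 4.4e-12). Xlr3a, an X-linked gene with near-identical copies that make its level uncertain, averaged 48.7 ± 8.35 CPM in 32-cell embryos and 6.07 ± 3.16 CPM in 16-cell embryos (log2 change 2.90, SE 0.26, adjusted p = 2.2e-11). Tex19.2, a mammalian gene of germline and early embryo, averaged 35.3 ± 9.41 CPM in 32-cell embryos and 4.57 ± 1.73 CPM in 16-cell embryos (log2 change 2.73, SE 0.34, adjusted p = 7.7e-08), and 2.42 CPM in blastocysts.

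The largest falls were Gm14373, Gm8177, Chka, Id3, Obox6, Gm26917, AY036118, Siah1a, Gm29284, Btbd18, Exoc3l2 and Ankrd10. Of these, Gm14373, Gm8177 and Gm29284 are annotated as pseudogenes and Gm26917 and AY036118 as long noncoding RNAs, and no role is given here. Gm26917 and AY036118 also belong to the ribosomal RNA-like share given above, which was lower in the 32-cell libraries. Siah1a, a ubiquitin ligase with close relatives, averaged 3.73 ± 0.599 CPM in 32-cell embryos and 23.6 ± 5.48 CPM in 16-cell embryos (log2 change -2.36, SE 0.17, adjusted p = 2.4e-13). Ankrd10, an ankyrin-repeat protein, averaged 96.6 ± 25.5 CPM in 32-cell embryos and 437 ± 50.1 CPM in 16-cell embryos (log2 change -2.19, SE 0.17, adjusted p = 4.5e-13). Morulae averaged 828 CPM. Btbd18, which in mouse testis promotes transcription of piRNA precursors, averaged 15.3 ± 2.81 CPM in 32-cell embryos and 77.8 ± 6.93 CPM in 16-cell embryos (log2 change -2.29, SE 0.22, adjusted p = 1.7e-10). Exoc3l2, a relative of exocyst subunits, averaged 12.4 ± 2.41 CPM in 32-cell embryos and 64.2 ± 13.1 CPM in 16-cell embryos (log2 change -2.27, SE 0.25, adjusted p = 4.2e-09).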

How the data were processed

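The authors deposited one table of expression in CPM, that is, counts scaled to the same total in each library, with 0.0001 added to every value (checked on the column sums), for 37394 entries in 91 columns. Per the submitters' processing notes, STAR 2.6.1d was used with the mm10 genome; the counting program, annotation and use of strand are not given in the sources used here. Columns were matched to samples by name (85 matched, 6 not used), and groups follow the labels. The 0.0001 was subtracted. The 26 entries named by numbers (0.0553 to 0.0713% of a library) were left out, and 36810 of 37368 symbols matched GENCODE vM21 (GRCm38). The most frequent value above 0 in a library was taken as the CPM of 1 read and gave its depth. Counting error alone gives a relative SD of 18.9 to 24.1% at 1 CPM and 4.23 to 5.39% at 20 CPM, and amplified reads without molecular identifiers are not independent molecules. Whole reads could not be recovered, since 73.5 to 75.1% of values of at most 20 reads lay within 0.1 of a whole number, so no count test was run.

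Genes above 1 CPM in at least 3 of the 45 libraries of the 12 standard-medium groups were tested as log2(CPM + 1) for early 32-cell minus early 16-cell. The test was limma's moderated t with an intensity trend for the variance (limma 3.58.1, R 4.3.3), two-sided, with a Benjamini-Hochberg threshold of 0.05. A pseudocount of 1 understates changes of low genes. SE and adjusted p in brackets are from this fit, and levels are mean ± SD (n = 4 libraries at 32 cells and 5 at 16 cells). Single values per library were compared by exact permutation, adjusted over 4. Gene lists got no set test, only counts and medians. Alternatives changed the pseudocount, filter, scaling, stages in the fit, trend, weights, replicate block and libraries. The comparison, gene lists and genes were chosen with earlier results of these data known. Named were the 12 largest rises and falls with at least 20 CPM and no overlap, up to 6 members per list with at least 10 CPM and the largest changes, and a lineage panel; further members of small counts were named after their values were seen. Of the list genes, Hbb-bs, Hbb-bt, Foxj1 and Col3a1 were not analysed here. The procedure was tested on simulated data. Tables and figures were made in Python 3.11.15 (numpy 2.4.6, pandas 2.3.3, matplotlib 3.10.9). Promoters are from RefSeq (GRCm38.p6).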

Additional observations from a re-analysis of the deposited data

Results flagged for a closer look

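Examined were 396 sets of values in a group, of genes mostly named above and of the 4 single values per library. Of these sets, 14 held a library far from the others by Dixon's criterion, which chance alone gives in about 5% of sets. In the 32-cell group, Klf6 was highest in replicate 2 at 47.3 CPM (next 39.9 CPM), and Rbpj was lowest there at 41.7 CPM (next 48.2 CPM). The same replicate was lowest for Gata2 at 0.112 CPM (next 0.670 CPM) and highest for Tdh at 31.4 CPM (next 24.4 CPM). Replicate 1 was highest for Hk1 at 5.47 CPM (next 1.95 CPM), Pard6g at 8.19 CPM (next 4.15 CPM) and Porcn at 14.3 CPM (next 7.63 CPM). In the 16-cell group, Myc was highest in replicate 1 at 40.0 CPM (next 25.2 CPM). Replicate 3 was highest for Gapdh at 5.59 CPM (next 2.42 CPM), Ndufb9 at 73.3 CPM (next 61.0 CPM) and Lrp2 at 32.9 CPM (next 18.4 CPM), and held 0.0902 CPM of Adh1, where the others were at 0. Sox17 was 0.107 CPM in replicate 5 and 0 in the others, and Nlrp4f was highest in replicate 4 at 1.19 CPM (next 0.529 CPM). The cause was not tested.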

How the results depend on the processing

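Calls numbered 4175 with the spread of all standard stages, 7242 with the 9 libraries alone (3062 higher, 4180 lower), 7450 when these were also scaled by median ratios (3917 higher, 3533 lower, added after seeing the data) and 8682 with array weights (3627 higher, 5055 lower). Median-ratio scaling gave 2670 higher genes. Every gene called both in the standard fit and in one of these fits had the same direction, but all of them use the same libraries. With the 9 libraries alone on the deposited scale, a change is the same difference of group means, so its direction could not differ. With each library left out in turn, calls numbered 3319 to 3794 (1252 to 1546 higher, 1893 to 2374 lower). The replicate numbers of the groups do not pair the libraries: deviations of same-numbered libraries correlated at -0.083, -0.347, -0.317 and -0.099, and no library correlated best with its own number. With the numbers as a replicate block in the fit of the 9 libraries, 5633 genes passed. A set of 194 genes, most of them named above, was followed through the 22 settings; a few genes named above are not in it. Of these 194, 176 passed, of which 135 held in all 22 settings. Of the 18 others, 12 passed with the 9 libraries alone. With single libraries left out, the log2 changes of Fgfr1 and Ccn1, which had not passed, ranged from -0.0681 to 0.0908 and from -0.0336 to 0.227. The difference in genes detected was -119.1 genes at a limit of 5 CPM, against 189.7 genes at 1 CPM. The difference in mitochondrially encoded share had an exact permutation p of 0.0286 without 16-cell replicate 4 (0.641 percentage points) and lay between 0.339 and 0.641 percentage points over all such fits. The causes were not tested. Counting error limits genes near 1 CPM.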

Other observations

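Genes of lysosomes and endocytosis, which take up and degrade material, were divided. Of 29 tested, 6 were higher (20.7%; 3 without 32-cell replicate 1) and 4 lower (13.8%), against 8.49% and 12.2% over all genes, and the median log2 change was 0.07, beside -0.01 over all genes. With the 9 libraries alone, 10 were higher and 11 lower, against 23.5% and 32.1% over all genes in that fit. The endocytic receptor Lrp2, megalin, averaged 64.0 ± 8.14 CPM in 32-cell embryos and 19.6 ± 7.74 CPM in 16-cell embryos (log2 change 1.72, SE 0.30, adjusted p = 3.6e-05). Clathrin heavy chain, Cltc, averaged 171 ± 34.9 CPM in 32-cell embryos and 76.4 ± 6.25 CPM in 16-cell embryos (log2 change 1.13, SE 0.20, adjusted p = 3.9e-05). The lysosomal enzyme gene Hexa averaged 164 ± 28.7 CPM in 32-cell embryos and 88.2 ± 12.8 CPM in 16-cell embryos (log2 change 0.88, SE 0.27, adjusted p = 0.016). The Hexa call was lost without 32-cell replicate 1 (adjusted p up to 0.065). The early endosome GTPase Rab5a averaged 43.9 ± 12.6 CPM in 32-cell embryos and 96.7 ± 17.4 CPM in 16-cell embryos (log2 change -1.15, SE 0.20, adjusted p = 2.9e-05).

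In cholesterol synthesis 2 of 22 genes were higher (9.09%) and 4 lower (18.2%), against 8.49% and 12.2% over all genes, and the median log2 change was 0.11. With the 9 libraries alone, 7 were higher and 5 lower, against 23.5% and 32.1% over all genes in that fit. The higher calls numbered 1 without 32-cell replicate 1 or 2 or 16-cell replicate 1, 2, 4 or 5, and 0 without 32-cell replicate 4. The lower genes were Fdft1, squalene synthase (95.4 against 225 CPM, -1.22), Lss (17.5 against 33.4 CPM, -0.89), Msmo1 (88.8 against 147 CPM, -0.72) and Hmgcs1 (21.7 against 34.5 CPM, -0.64), enzymes of the pathway, and the higher ones were the sterol sensor partner Insig1 (30.6 against 18.1 CPM, 0.73) and the kinase Pmvk (11 against 6.96 CPM, 0.61). The Msmo1 call was lost without 32-cell replicate 1 or 16-cell replicate 4, after median-ratio scaling, after quantile scaling or after removal of the length trend (adjusted p up to 0.066). The Hmgcs1 call was lost after quantile scaling (adjusted p up to 0.056). The Insig1 call was lost without 32-cell replicate 2, 3 or 4 or 16-cell replicate 2 or 5 or with no filter (adjusted p up to 0.092). The Pmvk call was lost without 32-cell replicate 1 or 4 or 16-cell replicate 1 or 4 (adjusted p up to 0.066).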
